A study of Rattus norvegicus with 29 samples.

Results

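The pancreatic transcripts followed here in the duodenum of the rat were Prss1, Ctrb1 and Cela3b, which encode digestive proenzymes of the acinar cell, and Ins1, Ins2 and Ppy, which encode hormones of the islet. They make up 6 of the 14557 named genes measured, chosen by name, and each is represented by the row of highest mean that carries its symbol. Each had 1 such row. The 29 arrays hold 1 duodenum each from male wild-type (WT) Long-Evans rats of 8 to 10 weeks. Of the rats, 6 had Roux-en-Y gastric bypass (RYGB) and 5 had its sham operation, 6 had vertical sleeve gastrectomy (VSG, in which about 80% of the stomach was transected), 6 had the VSG sham operation, and 6 had the VSG sham operation and were pair-fed (pair-fed VSG sham). All were given a liquid diet from the day before surgery. The labels describe no bypass procedure and no time between surgery and tissue collection, and no pair-fed control of RYGB was analysed here.

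The exocrine pancreas is a mass of acinar cells that make digestive enzymes in bulk, store most proteases as inactive zymogens and release them through ducts into the duodenum. Islets lie scattered among the acini: beta cells make insulin, and PP cells make pancreatic polypeptide. In the rat the pancreas runs along the duodenal loop, and insulin has a pair of genes, Ins1 and Ins2, each of which encodes a complete preproinsulin. Neither acinar proenzymes nor insulin are products of the mature enterocyte.

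Values are on the log2 scale, so a difference of 1 is a doubling. They are processed microarray signals, and the level of one gene cannot be set against that of another. The median of all rows lay between 2.80 and 2.97 on every array and serves here as a mark of a low signal. The tissue label held on every array: the mean of 11 measured genes of the duodenal epithelium, such as Alpi (intestinal alkaline phosphatase) and Vil1 (villin), lay between 9.59 and 10.08. No pair of arrays was a copy of another, the highest correlation over all rows being 0.977. In whole tissue, more cells of a type and more RNA per cell cannot be told apart.

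The stretches just before the gene starts are shown for the acinar members and for the insulin genes. They are 250 bases each, from RefSeq on the GRCr8 build, 5′ to 3′ on the strand of the gene. All 6 members matched that table. In the acinar genes the capitals mark CACCTG, an E-box that the acinar factor PTF1 can bind, and TGGGAA, the core bound by its RBPJ-type subunit, on either strand. In the insulin genes they mark GCCATCTG, the insulin E-box, on either strand.
Prss1 (chr4:71330999-71331248, plus strand): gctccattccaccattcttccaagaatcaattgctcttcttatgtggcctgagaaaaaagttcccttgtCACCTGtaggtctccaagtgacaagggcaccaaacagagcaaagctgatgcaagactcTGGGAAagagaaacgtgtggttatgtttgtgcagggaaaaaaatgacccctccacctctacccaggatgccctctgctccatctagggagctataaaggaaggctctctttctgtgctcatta
Ctrb1 (chr19:56566979-56567228, minus strand): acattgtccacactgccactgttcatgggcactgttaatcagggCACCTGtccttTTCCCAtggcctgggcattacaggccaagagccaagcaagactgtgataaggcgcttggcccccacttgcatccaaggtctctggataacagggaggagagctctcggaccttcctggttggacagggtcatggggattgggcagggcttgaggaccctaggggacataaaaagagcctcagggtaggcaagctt
Cela3b (chr5:154920334-154920583, minus strand): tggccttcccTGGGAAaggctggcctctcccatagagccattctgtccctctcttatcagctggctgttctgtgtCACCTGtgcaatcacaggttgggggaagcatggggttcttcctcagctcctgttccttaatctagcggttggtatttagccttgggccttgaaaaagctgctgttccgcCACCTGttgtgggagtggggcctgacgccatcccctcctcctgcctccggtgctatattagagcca
Ins1 (chr1:261185869-261186118, plus strand): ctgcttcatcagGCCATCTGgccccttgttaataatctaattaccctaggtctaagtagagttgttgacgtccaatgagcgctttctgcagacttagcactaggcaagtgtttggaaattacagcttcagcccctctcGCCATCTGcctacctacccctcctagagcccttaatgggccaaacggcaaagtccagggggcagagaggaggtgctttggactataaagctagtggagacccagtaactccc
Ins2 (chr1:207273806-207274055, minus strand): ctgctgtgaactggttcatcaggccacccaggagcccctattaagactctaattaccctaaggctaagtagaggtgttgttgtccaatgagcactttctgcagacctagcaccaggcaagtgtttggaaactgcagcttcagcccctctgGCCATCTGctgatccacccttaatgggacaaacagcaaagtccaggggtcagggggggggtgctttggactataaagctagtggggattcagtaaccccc
All 3 acinar stretches hold both CACCTG and TGGGAA, which occur together in 3.48% of the 27457 stretches of this length. Apart, CACCTG is found in 15.6% of them and TGGGAA in 21.6%. Of the 20 other acinar genes with a stretch in the table, 5 hold both motifs. Ins1 holds GCCATCTG at 2 places and Ins2 at 1, and 0.987% of all stretches hold it at all. Ins1 and Ins2 are identical at 209 of 263 aligned positions (79.5%), against 46.2% to 54.1% for the other pairs of members. The Ppy stretch holds none of these 3 motifs. These motifs were chosen as known ones, they do not overlap each other at the places marked, and a match is a description of letters only. Whether the motifs bear on how the members varied from rat to rat was not tested.

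Prss1, Ctrb1 and Cela3b differed widely between rats treated alike. Prss1 encodes a trypsinogen, the zymogen of trypsin, which activates the other proteases. In RYGB its log2 level had a lowest value of 2.87, a median of 9.22 and a highest of 10.03. In the RYGB sham it was 7.92, 1.33, 1.96, 1.89 and 0.96 in replicates 1 to 5. So 5 of 6 RYGB arrays were high and 4 of 5 sham arrays were low, with 1 array of each group on the other side. In VSG the lowest, median and highest values of Prss1 were 6.28, 9.01 and 10.16. In the VSG sham they were 0.82, 6.10 and 9.65, and in the pair-fed VSG sham 2.34, 5.56 and 10.54. Every VSG array was well above its array median, whereas 2 arrays of each VSG control were under it. The pair-fed group held the highest Prss1 value of all 29 arrays.

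Ctrb1 encodes chymotrypsinogen B, which trypsin activates. Its lowest, median and highest values were 2.83, 10.77 and 11.43 in RYGB. The RYGB sham arrays were at 7.91, 2.98, 3.57, 3.88 and 2.94. As with Prss1, RYGB replicate 5 and sham replicate 1 crossed over, and the lowest value of these 11 arrays was a RYGB array. In VSG, Ctrb1 ran from 6.71 through a median of 9.73 to 10.74. In the VSG sham it ran from 2.84 through 6.47 to 10.58, and in the pair-fed VSG sham from 2.41 through 6.62 to 11.44. The VSG arrays lay inside the range of the pair-fed arrays, which spanned 9.03 log2 units, a 522-fold difference between rats of a single group.

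Cela3b encodes a chymotrypsin-like elastase that is also made as a zymogen. It ran from 3.47 through a median of 8.31 to 9.63 in RYGB, and stood at 5.52, 2.57, 1.73, 3.18 and 3.01 in the RYGB sham. As many as 5 of the 6 RYGB arrays were above every RYGB sham array. In VSG it ran from 4.53 through 7.68 to 8.86, in the VSG sham from 2.08 through 5.17 to 8.69, and in the pair-fed VSG sham from 1.85 through 5.27 to 9.47. Again 5 VSG arrays lay at 6.92 or above and 1, replicate 4, at 4.53.

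The insulin genes were low in most rats and high in a few. Ins1 was under the array median on 15 of 29 arrays, and Ins2 on 15. Ins1 ran from 1.87 through a median of 4.42 to 6.54 in RYGB, and stood at 2.62, 1.52, 2.20, 1.72 and 2.04 in its sham. All 5 RYGB sham arrays were under their array medians. In VSG Ins1 ran from 2.00 through 3.20 to 4.72, in the VSG sham from 1.96 through 2.91 to 7.25, and in the pair-fed VSG sham from 1.37 through 2.12 to 9.36. The highest values came from the control rats: pair-fed replicates 1 and 6 (9.36 and 7.14) and VSG sham replicate 1 (7.25).

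Ins2 followed the same arrays. It ran from 2.80 through a median of 3.62 to 6.63 in RYGB, and stood at 2.52, 2.28, 2.11, 1.55 and 2.68 in the RYGB sham. The lowest RYGB array (2.80) was just above the highest sham array (2.68), the only case among the members and pairs of groups in which the groups did not overlap. In VSG Ins2 ran from 1.54 through 3.41 to 4.35, in the VSG sham from 2.01 through 2.49 to 6.81, and in the pair-fed VSG sham from 1.66 through 2.81 to 8.54. The values of 6.81, 8.54 and 6.98 belonged to the 3 control rats that were highest for Ins1. The probes of Ins1 and Ins2 may share signal, since the genes are near copies, and the same holds for Prss1 and the other trypsinogens.

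Ppy, the gene of pancreatic polypeptide, varied far less than the other members. It ran from 3.54 through a median of 3.90 to 5.55 in RYGB, and stood at 3.79, 3.70, 4.10, 4.05 and 3.68 in its sham. It ran from 3.16 through 3.69 to 4.18 in VSG, from 3.27 through 3.67 to 3.96 in the VSG sham, and from 3.38 through 4.06 to 4.30 in the pair-fed VSG sham. No array was under its median for Ppy, and the ranges of the 5 groups overlapped. Their widths went from 0.42 log2 units in the RYGB sham to 2.01 in RYGB. A single array stood apart, RYGB replicate 4 at 5.55, with the next of all arrays at 4.30. That array also had the highest Ins1 and Ins2 of its group.

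**Figure D1:**
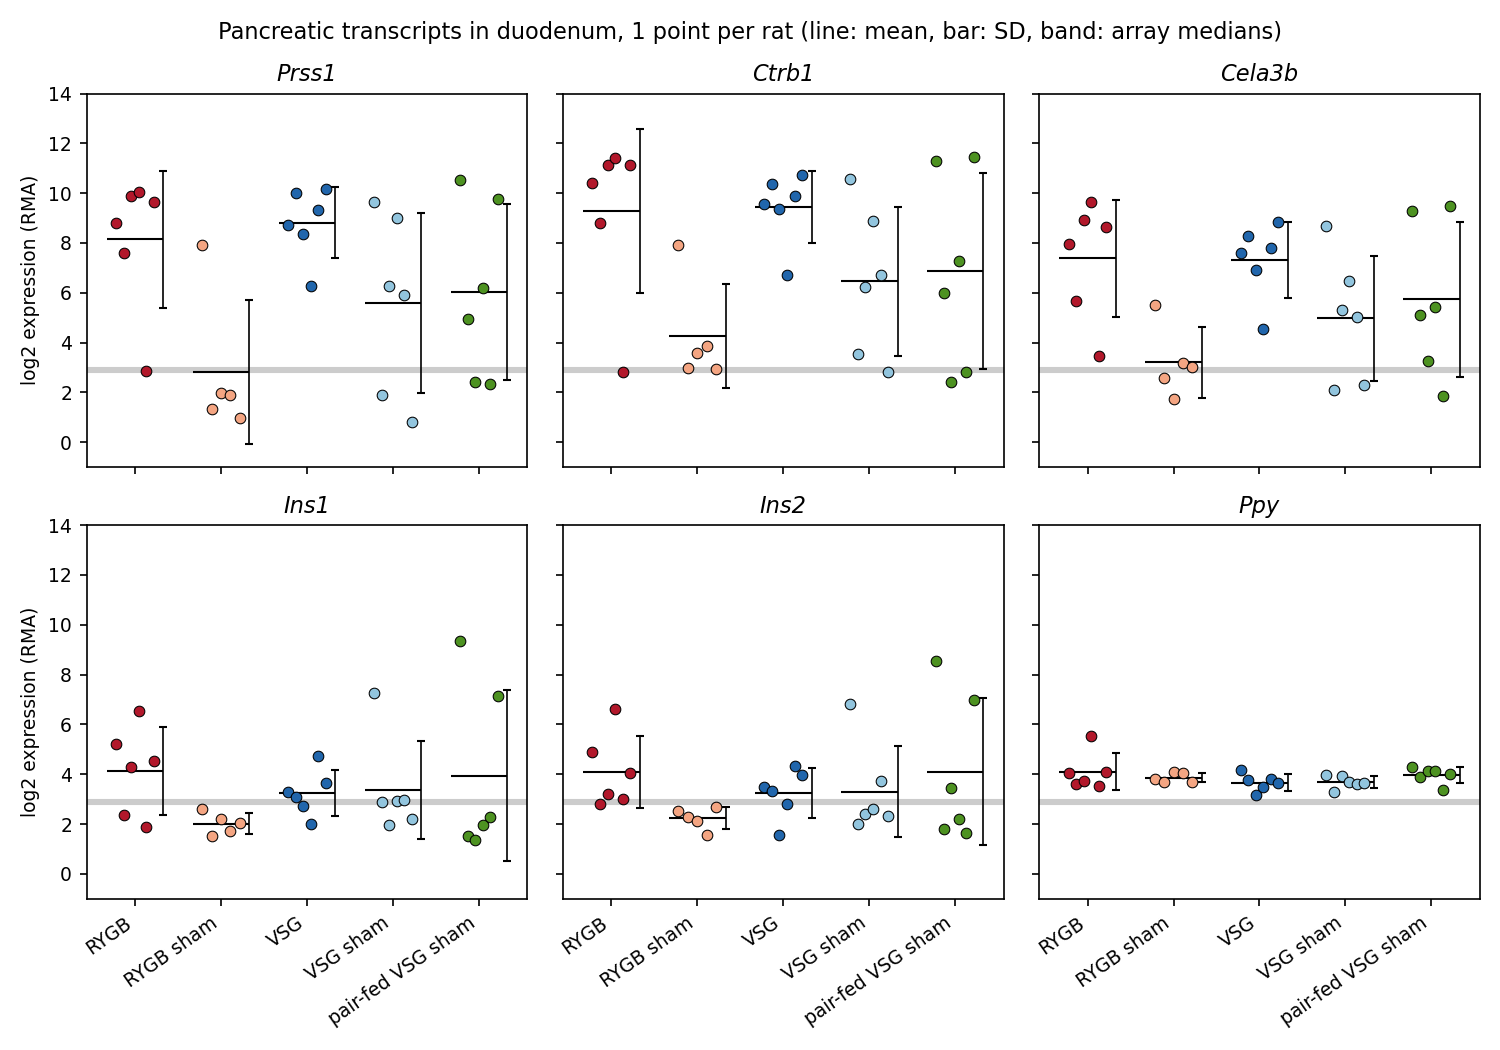
Log2 expression of the 6 transcripts (vertical axis) in the 5 groups (horizontal axis), 1 point per rat, with the group mean as a line, the SD as a bar and the span of array medians (2.80 to 2.97) as a grey band. The acinar genes fill most of the scale within the control groups, Ins1 and Ins2 are high in a few rats, and Ppy is flat apart from 1 RYGB array at 5.55.

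The spread between rats of a group placed the acinar and insulin genes among the most variable of the duodenum. Pooled over the 5 groups, the within-group SD was 2.95 for Prss1 and 2.92 for Ctrb1, the largest and second of 14557 genes, where the median gene had 0.26. Cela3b had 2.30 (place 11), Ins1 2.02 (place 13) and Ins2 1.78 (place 19), whereas Ppy had 0.42 (place 958). The share of variance that lay between the groups was 36.9% for Prss1, 33.5% for Ctrb1 and 34.5% for Cela3b. It was 13.0% for Ins1, 14.4% for Ins2 and 16.3% for Ppy, beside a median of 16.5% over all genes. The insulin genes therefore varied strongly, but no more of that variation followed the groups than for the median gene.

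Whether the operation changed these levels was asked in 1 linear model over all 29 arrays and all named genes. The acinar members had high estimates after RYGB that did not pass the threshold. RYGB was above its sham by 5.33 ± 1.62 (SE, n = 6 and 5) for Prss1 (limma adjusted p = 0.0769), by 5.03 ± 1.61 for Ctrb1 (0.0995) and by 4.18 ± 1.27 for Cela3b (0.0749). For Ins1 the difference was 2.12 ± 1.12 (adjusted p = 0.397), for Ins2 1.86 ± 0.98 (0.40) and for Ppy 0.24 ± 0.24 (0.735). Thus 0 of 6 members were called at an adjusted p under 0.05, where 2.64% of all genes were (385 of 14557), and 3 of the 6 had an unadjusted p under 0.05, as did 14.1% of all genes. The 95% interval was 2.01 to 8.65 for Prss1, so the size of the difference was poorly fixed.

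Leaving out either of 2 arrays changed these calls. Without RYGB replicate 5, which was low in all 3 acinar genes, the difference was 6.38 for Prss1 (limma adjusted p = 0.0208), 6.32 for Ctrb1 (0.0144) and 4.97 for Cela3b (0.0221), and all 3 were called, beside 3.07% of all genes in that fit. Without RYGB sham replicate 1, which was high in them, Prss1 differed by 6.60 (adjusted p = 0.0263) and was the only member called, beside 1.95% of all genes. An exact permutation test of each member alone, two-sided and unadjusted, gave p = 0.0130 for Prss1, 0.0303 for Ctrb1, 0.00866 for Cela3b, 0.0390 for Ins1, 0.00433 for Ins2 and 0.736 for Ppy. That made 5 members with p under 0.05 in the test that looked at these 11 arrays only, with no adjustment for the other genes. These p are 2 times the smaller tail. Over all genes the exact p was counted on the absolute difference instead, and 12.5% of genes and 5 members had it under 0.05. The reason that RYGB replicate 5 and sham replicate 1 differ from their groups was not tested.

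After VSG the acinar estimates were again positive, and the insulin estimates were near 0. VSG was above its sham by 3.21 ± 1.55 (SE, n = 6 and 6) for Prss1, 2.98 ± 1.53 for Ctrb1 and 2.35 ± 1.21 for Cela3b, with limma adjusted p = 0.546, 0.587 and 0.589. The differences were -0.12 ± 1.06 for Ins1, -0.06 ± 0.94 for Ins2 and -0.01 ± 0.23 for Ppy. No member was called, beside 0.179% of all genes, and Prss1 alone of the members had an unadjusted p under 0.05 in limma, as did 8.99% of all genes. Exact permutation p for the acinar genes was between 0.0541 and 0.0844. The interval for Ins1 ran from -2.30 to 2.06, so a change of up to about this size in either direction was not excluded with these rats.

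Against the pair-fed sham, which shares the VSG arrays with the comparison before it, VSG was higher by 2.77 ± 1.55 for Prss1, 2.58 ± 1.53 for Ctrb1 and 1.60 ± 1.21 for Cela3b. It was lower for the islet genes, with -0.69 ± 1.06 for Ins1, -0.85 ± 0.94 for Ins2 and -0.30 ± 0.23 for Ppy. None was called, beside 0.508% of all genes, and none had an unadjusted p under 0.05. Pair feeding itself, against the fed VSG sham, went with differences of 0.44 ± 1.55 for Prss1, 0.40 ± 1.53 for Ctrb1, 0.75 ± 1.21 for Cela3b, 0.57 ± 1.06 for Ins1, 0.80 ± 0.94 for Ins2 and 0.29 ± 0.23 for Ppy. There, 0 members and 0% of all genes were called. With limma 811 genes had an unadjusted p under 0.05 in that comparison, and no member was among them.

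The shams of the RYGB and VSG operations had no member called apart either, with 0% of all genes called and 757 genes at an unadjusted p under 0.05 (limma). Their differences, VSG sham minus RYGB sham, were 2.78 ± 1.62 for Prss1, 2.20 ± 1.61 for Ctrb1, 1.78 ± 1.27 for Cela3b, 1.35 ± 1.12 for Ins1, 1.08 ± 0.98 for Ins2 and -0.19 ± 0.24 for Ppy. The RYGB sham had the lowest group mean of all 5 groups for each acinar gene, at 2.81 for Prss1, 4.25 for Ctrb1 and 3.20 for Cela3b. The same held for Ins1 (2.02) and Ins2 (2.23), but not for Ppy (3.87). The difference between the RYGB effect and the VSG effect was 2.12 ± 2.24 for Prss1, 2.05 ± 2.22 for Ctrb1 and 1.84 ± 1.75 for Cela3b. It was 2.24 ± 1.54 for Ins1, 1.92 ± 1.36 for Ins2 and 0.25 ± 0.33 for Ppy. No member was called in this test of the difference, beside 0.392% of all genes, so the operations were not shown to differ for any of them.

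**Figure D2:**
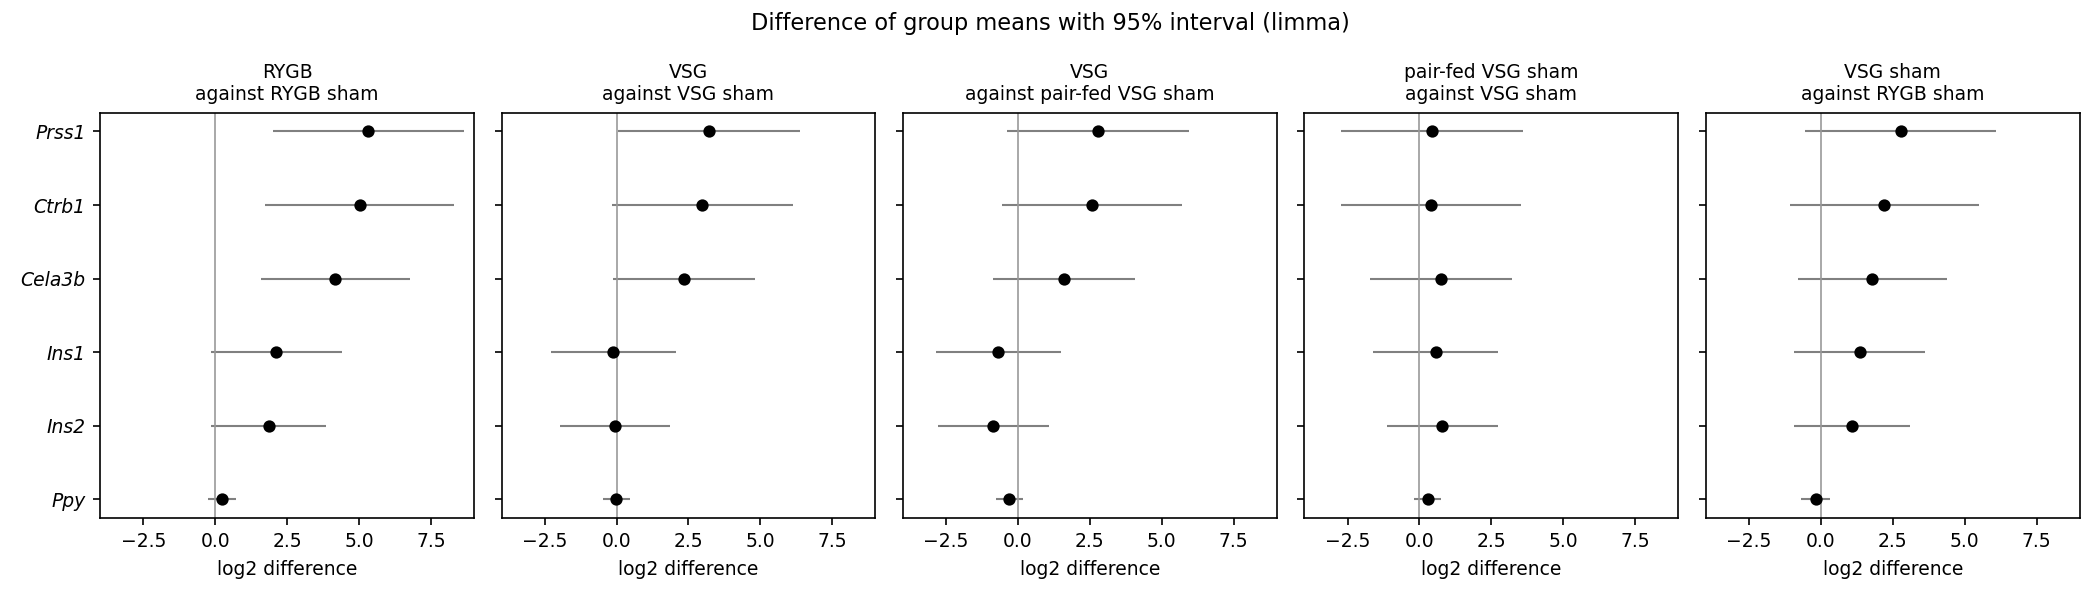
Difference of group means on the log2 scale (horizontal axis) for the 6 transcripts (vertical axis) in 5 comparisons, with points for the limma estimate and bars for its 95% interval. The acinar estimates lie above 0 in every panel, from 0.40 to 5.33, with wide bars, and the Ppy bars are narrow and include 0.

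The groups overlapped in nearly every case. A gene was counted as separated when every array of a group lay above every array of the other. Between RYGB and its sham 1 of 6 members, Ins2, was separated, beside 2.78% of all genes. Between RYGB and each of the VSG arms it was 0 of 6, beside 2.19% of all genes for VSG, 2.5% for the VSG sham and 2.25% for the pair-fed VSG sham. Between the RYGB sham and the VSG arms it was 0 of 6 as well, beside 1.37%, 0.405% and 0.316% in the same order. Among the VSG arms it was 0 of 6 again, beside 0.845% for VSG and its sham, 1.14% for VSG and the pair-fed sham, and 0.261% for both shams. Leaving out 1 array added cases. Without RYGB replicate 5 or without RYGB sham replicate 1, 3 members were separated between those groups, beside 3.95% and 3.75% of all genes. Between VSG and the RYGB sham, 4 members were separated without VSG replicate 4, 3 without RYGB sham replicate 1 and 1 without VSG replicate 3, beside 2.49%, 2.85% and 1.82% of all genes. Between the RYGB sham and the pair-fed VSG sham, 1 was separated without RYGB sham replicate 1, beside 0.735% of all genes.

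Counted array by array, RYGB and VSG interleaved for the acinar genes. Of the VSG arrays, 1 was above all RYGB arrays for Prss1, and 3 RYGB arrays were above all VSG arrays for Ctrb1 and 2 for Cela3b. Against the VSG sham, 2 VSG arrays were above all sham arrays for Prss1, 1 for Ctrb1 and 1 for Cela3b. From below, 3, 3 and 2 sham arrays were under every VSG array for the same genes. At the upper end, VSG and its sham reached similar values: 10.16 and 9.65 for Prss1, 10.74 and 10.58 for Ctrb1, and 8.86 and 8.69 for Cela3b.

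Within a group the 3 acinar genes rose and fell together. After the group means were removed, the Pearson correlation over 29 arrays was 0.975 for Prss1 with Ctrb1, 0.945 for Prss1 with Cela3b and 0.962 for Ctrb1 with Cela3b. Spearman's rho was 0.978, 0.958 and 0.960. Each had a permutation p of 1e-05, the smallest that 100000 permutations within groups can give, and an adjusted p of 3.75e-05 over the 15 pairs of members. Without the 2 arrays farthest from the median, r was 0.979, 0.947 and 0.969. Here and below, distance was taken on the first gene of a pair only, in the order Prss1, Ctrb1, Cela3b, Ins1, Ins2 and Ppy. Within each group of 6 the 3 acinar pairs had r between 0.947 and 0.998, and all 12 passed an exact permutation test adjusted over 60 values. By rho in the same test the acinar pairs passed in RYGB and VSG (exact permutation adjusted p = 0.0278). They did not pass by rho in the VSG sham or the pair-fed VSG sham (0.0769 to 0.111). No correlation was computed within the RYGB sham, which has 5 arrays.

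Ins1 and Ins2 also went together, with r = 0.931 and rho = 0.860 (permutation p = 1e-05, the smallest possible). Without the 2 farthest arrays r was 0.857. Within groups of 6 their r was 0.738 to 0.959, and 1 of 4 passed after adjustment, in RYGB (r = 0.899, exact permutation adjusted p = 0.0313). By rho the pair did not pass in RYGB (0.943, exact permutation adjusted p = 0.0769) or in another group. Without the 2 farthest arrays, r over the 4 arrays left was 0.930 in VSG, 0.382 in the VSG sham and -0.674 in the pair-fed VSG sham. In the last 2 groups the high r thus rested on the arrays left out. The 4 arrays left in the pair-fed group all had Ins1 under the array median, so their r says little. The link between acinar and insulin genes was looser. Ins1 correlated with Prss1 at r = 0.714 (rho = 0.733, permutation adjusted p = 7.50e-05), with Ctrb1 at 0.770 (rho = 0.782) and with Cela3b at 0.796 (rho = 0.810). Ins2 correlated with Prss1 at 0.635 (rho = 0.602, permutation adjusted p = 0.00219), with Ctrb1 at 0.666 (rho = 0.624) and with Cela3b at 0.745 (rho = 0.717). Without the 2 farthest arrays r of these 6 pairs was 0.692 to 0.786. All 6 passed, yet within single groups only 1 of 24 passed after adjustment, Cela3b with Ins1 in RYGB (r = 0.906, exact permutation adjusted p = 0.0313). In the pair-fed group r between acinar and insulin genes was 0.808 to 0.896. Without the 2 farthest arrays it fell to between -0.404 and 0.0399, so the high r rested on those arrays. The lower values come from the same 4 arrays with low Ins1 and say little by themselves.

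Over all 29 arrays Ppy had the lowest correlations of the members. Its r was 0.402 with Prss1 (rho = 0.456, permutation adjusted p = 0.0423), 0.425 with Ctrb1 (rho = 0.445, 0.0621), 0.502 with Cela3b (rho = 0.501, 0.0116), 0.460 with Ins1 (rho = 0.441, 0.0116) and 0.558 with Ins2 (rho = 0.50, permutation adjusted p = 0.000517). Without the 2 farthest arrays r was 0.355 to 0.581. Those arrays were picked by the other gene of each pair, so RYGB replicate 4, which stood apart for Ppy, was kept. Within groups of 6, 2 of the 20 pairs with Ppy passed after adjustment, both in RYGB: with Ins2 (r = 0.953, exact permutation adjusted p = 0.0298) and with Ins1 (r = 0.842, exact permutation adjusted p = 0.0238). By rho neither passed (exact permutation adjusted p = 0.111 with Ins2 and 0.0769 with Ins1). In all, 14 of 15 pairs passed and the pair of Ctrb1 and Ppy did not. The Prss1 pair lost its call without any 1 of 8 arrays, when the arrays were centred on their medians and after a further quantile normalization. The pair of Ins1 and Ppy lost its call without the 2 farthest arrays (r = 0.448, permutation adjusted p = 0.0625). With the replicate number added as a block, the pairs of Ppy with Prss1, Cela3b and Ins1 all lost their calls.

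The acinar pairs and the insulin pair had a high r in the rats with signal and a low one, or one under 0, in the others. In the 9 arrays with Prss1 under the array median, Ctrb1 stayed between 2.41 and 3.88, Ins1 between 1.37 and 2.897 and Ins2 between 1.55 and 3.44. In this split group means were not removed, so its r are not the same measure as the within-group r above. There r was -0.09 for Prss1 with Ctrb1, 0.21 for Prss1 with Cela3b and -0.46 for Ins1 with Ins2. In the other 20 arrays the same pairs had r = 0.960, 0.924 and 0.967, and Prss1 with Ins1 had 0.723. Over all 15 pairs r ran from -0.717 (Ctrb1 with Ins2) to 0.586 (Cela3b with Ins2) in the 9 low arrays, with 7 pairs under 0, and from 0.286 (Prss1 with Ppy) to 0.967 in the other 20. This split by level was chosen after the values were seen and is given with no test. Because the split was on Prss1, Prss1 spanned only 0.82 to 2.87 in the 9 low arrays, against 4.94 to 10.54 in the other 20. A narrow range lowers r by itself, so a low r there cannot show that a relation was absent. The 9 low arrays comprised 1 of RYGB, 4 of the RYGB sham, 0 of VSG, 2 of the VSG sham and 2 of the pair-fed sham.

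In these 29 arrays Ins1 was high only where Prss1 was high. The 8 arrays with Ins1 over 4 all had Prss1 at 8.78 or higher. The converse did not hold: among the 13 arrays with Prss1 over 8, Ins1 ranged from 2.73 to 9.36. The VSG group showed this most plainly, with a Prss1 median of 9.01 and an Ins1 median of 3.20. These levels, too, were chosen after the values were seen.

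**Figure D3:**
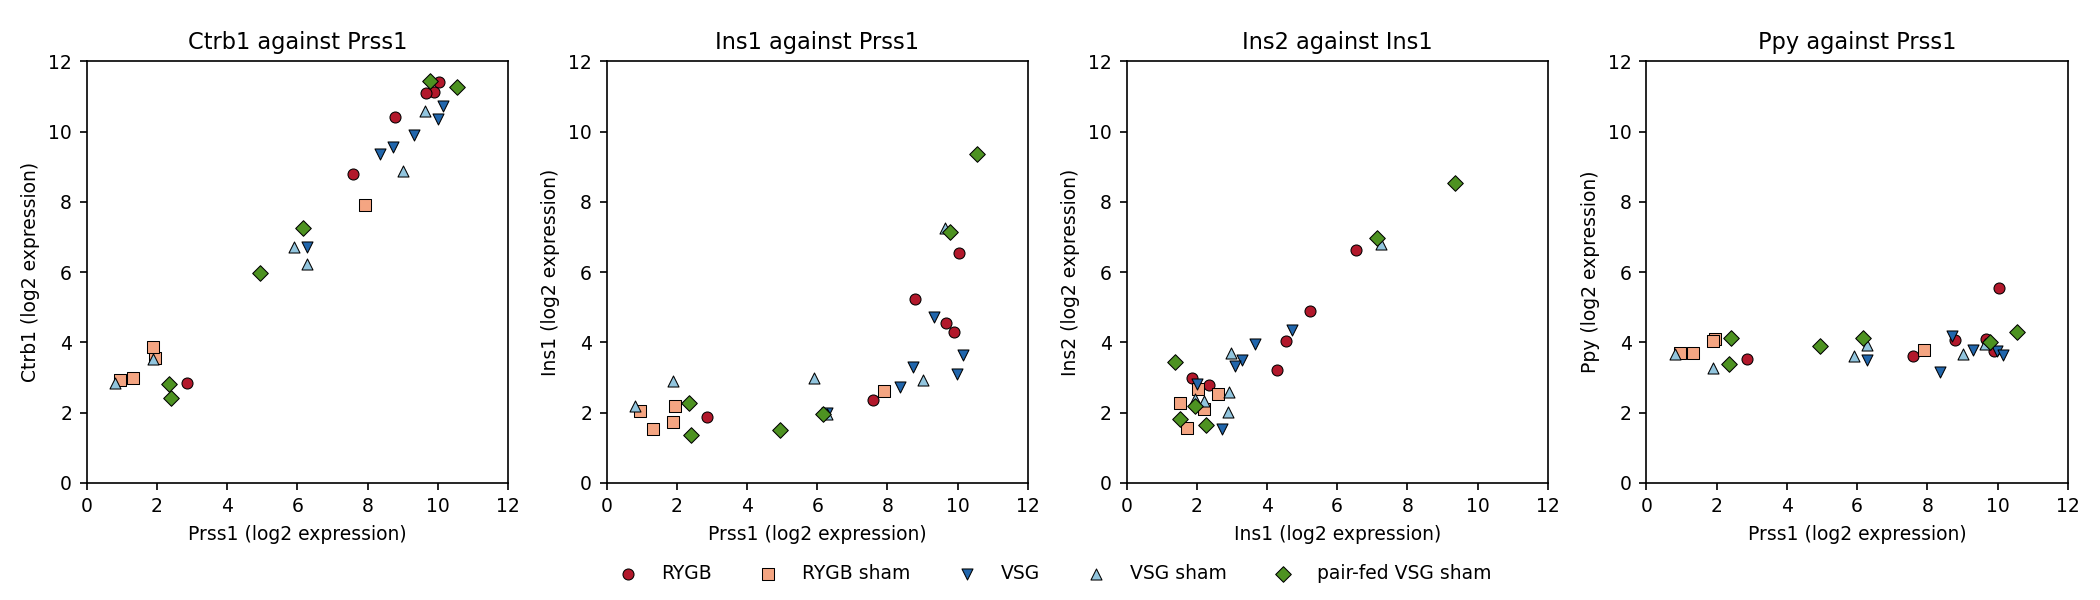
Log2 expression of 4 pairs of transcripts, 1 point per rat, with colour and shape for the group and both axes from 0 to 12. Ctrb1 tracks Prss1 along nearly a straight line above a floor, Ins1 is over 4 only where Prss1 is 8.78 or higher, Ins2 tracks Ins1, and Ppy stays near 4 at every level of Prss1.

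Other acinar genes followed the same rats. A list of 38 acinar enzymes and secretory proteins had 24 measured genes besides the members. Of these, 20 had a within-group r over 0.5 with Prss1, and the list's median was 0.848, beside a median of -0.038 over all genes. The highest were Prss3b (a trypsinogen, 0.982), Cela2a (an elastase, 0.970), Sycn (syncollin of the zymogen granule, 0.964) and Pnlip (pancreatic lipase, 0.963). The lowest were Klk1 (a kallikrein, -0.17), which was under the array median on all 29 arrays, and Reg1a (a regenerating protein, -0.01), which was never under 6.60. The mean of the list ran from 3.53 to 7.64 in RYGB, 3.28 to 5.11 in the RYGB sham, 4.34 to 7.13 in VSG, 3.45 to 6.88 in the VSG sham and 3.23 to 7.80 in the pair-fed sham.

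Against its sham, RYGB had 0 of these 24 genes called and 24 of 24 with an estimate above 0, with a median difference of 2.58 beside 0.00 over all genes. In VSG against its sham 0 were called and 23 were above 0, with a median of 1.14, and against the pair-fed sham 0 were called and 20 were above 0, with a median of 0.62. Since these genes vary together, their estimates are not separate observations. In the pair-fed sham against the fed sham the median was 0.49 and in the VSG sham against the RYGB sham 0.90, with 0 called in each. For the difference between the RYGB and VSG effects the median was 1.18, with 0 called.

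Of 4 transcription factors that set the acinar programme, 1 had an r over 0.5 with Prss1. Rbpjl, the acinar partner of PTF1, had r = 0.62 with Prss1 and 0.74 with Ins2, with levels from 2.04 to 4.94. Bhlha15 (Mist1, a factor of secretory cells) had 0.25 with Prss1 and 0.56 with Ins2, and Nr5a2, which enterocytes also express, had 0.21 with Prss1. Ptf1a, with r = 0.21, was under the array median on all 29 arrays. None of the 4 was called in any of the 6 comparisons.

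Among 15 beta cell genes, 10 were measured and 1 followed Ins2 with r over 0.5. It was Iapp (amylin, which beta cells release with insulin), with r = 0.87 and levels from 2.35 to 6.22. Mafa (0.49), Nkx6-1 (0.48) and Isl1 (0.12), all transcription factors of beta cells, came next, and Ptprn (-0.15) and Slc2a2 (-0.33) were lowest. With Prss1, 3 of the 10 had an r over 0.5: Iapp (0.551), Mafa (0.525) and Kcnj11 (0.519). The defining marker Slc30a8 (the zinc transporter of insulin granules) was under the array median on all 29 arrays, as were Nkx6-1 and Kcnj11. The list's mean ranged from 3.36 to 3.74 in RYGB, 3.43 to 3.71 in the RYGB sham, 3.47 to 3.60 in VSG, 3.47 to 3.96 in the VSG sham and 3.42 to 4.11 in the pair-fed sham. A single gene of the list was called, Slc2a2 (the glucose transporter GLUT2, which enterocytes also make), which was lower by 0.85 in RYGB than in its sham (limma adjusted p = 0.00133). The other comparisons called 0 of the 10.

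Gcg (proglucagon, made by islet alpha cells and gut L cells) had r = 0.70 with Ins2 and 0.46 with Prss1, the highest of 6 measured hormone genes of islet and gut. Sst (somatostatin) had 0.28 with Ins2. Of 5 duct genes Krt19 (a keratin) and Cftr (a chloride channel), which the gut epithelium shares, had r = -0.15 and -0.11 with Prss1, whereas Muc1 (a mucin, also of gut epithelium) had 0.52 with Prss1 and 0.59 with Ins2, at levels from 2.36 to 3.53. The remaining 2 had r of -0.04 and -0.03 with Prss1. Cftr was the only one called, higher by 0.40 in RYGB than in its sham (limma adjusted p = 0.0256). Of 4 measured genes of endocrine cells, for granule proteins or a transcription factor, 1, Pcsk2 (a prohormone convertase), had r over 0.5 with both Prss1 (0.57) and Ins2 (0.51).

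Markers of other tissues that a duodenal piece can hold did not track Prss1 in the same way. The median r with Prss1 was 0.17 for 11 duodenal epithelial genes, -0.26 for 3 Brunner gland genes, -0.21 for 4 smooth muscle genes, -0.01 for 7 adipose genes, -0.11 for 4 genes of B cells and lymphoid tissue, 0.06 for 4 mesothelial genes and 0.25 for 2 liver genes. The single measured red cell gene, Slc4a1 (band 3), had 0.13. No gene of these 8 lists had an r over 0.5 with Prss1, and 1, Pgc (pepsinogen C) of the Brunner gland list, had an r under -0.5 (-0.56). The adipose marker Adipoq (adiponectin) and the liver marker Apoh were under the array median on all 29 arrays. In RYGB against its sham, Anpep (aminopeptidase N) of the epithelial list was higher by 0.35 (limma adjusted p = 0.0165), and Cidec (a lipid droplet protein) of the adipose list was lower by 1.75 (limma adjusted p = 1.40e-09). The part of tissue composition in the members' levels was not tested.

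**Figure D4:**
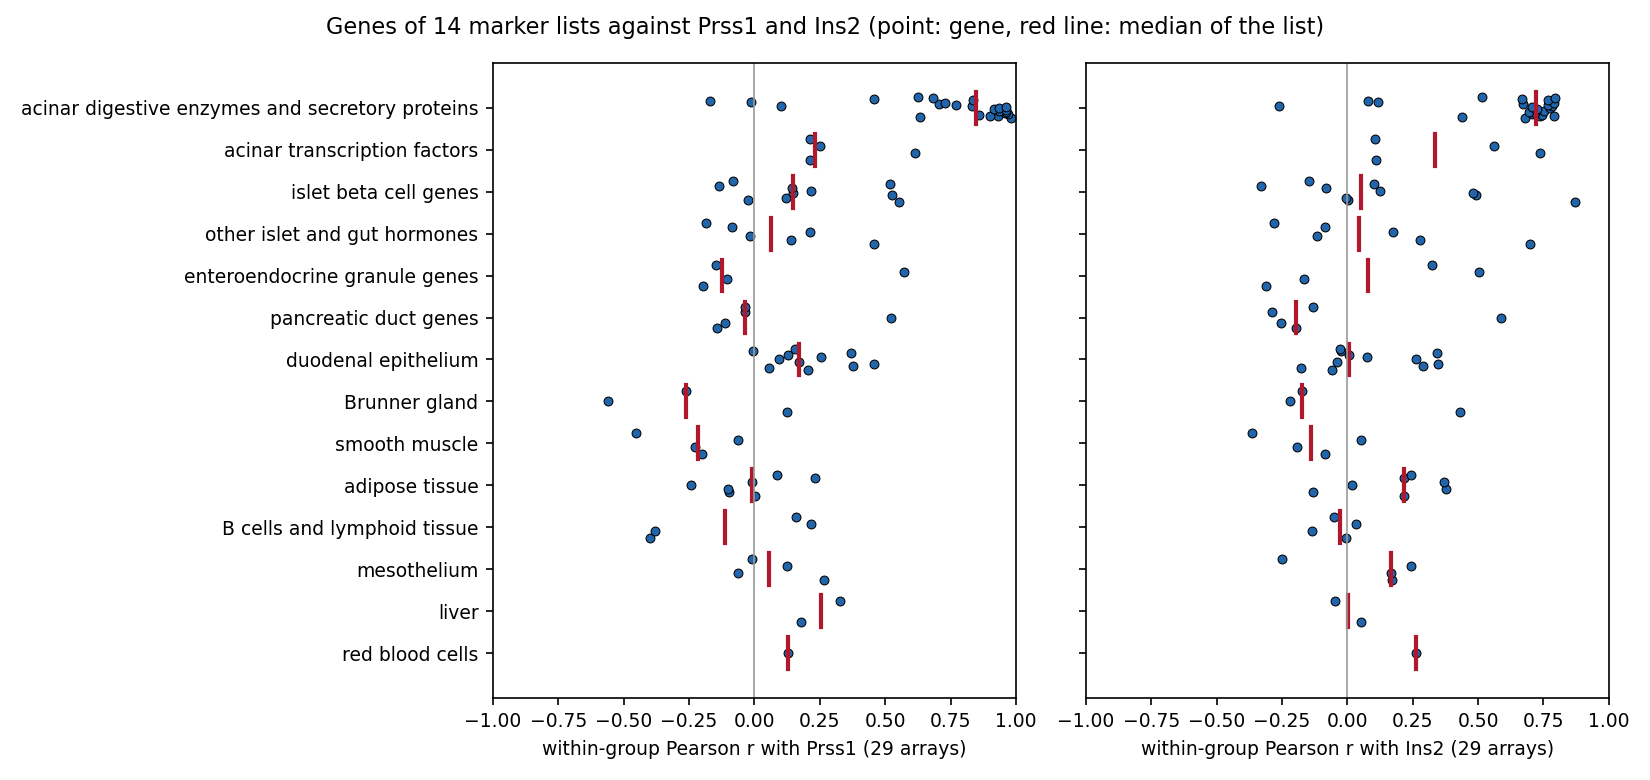
Within-group Pearson r over 29 arrays (horizontal axes) of each measured gene of 14 marker lists (vertical axis) with Prss1, left, and with Ins2, right, with a red line at the median of each list. The acinar enzymes gather near their medians of 0.848 and 0.720, and the medians of the other lists lie between -0.26 and 0.34.

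Over all other named genes, the 8 most like Prss1 by within-group r across 29 arrays were Prss3b (0.982), PRSS2 (0.974, spelled so in the annotation), Cela2a (0.970), Sycn (0.964), Pnlip (0.963), Cel (carboxyl ester lipase, 0.961), Cpa1 (carboxypeptidase A1, 0.959) and Pnliprp1 (a pancreatic lipase-related protein, 0.937). In all, 81 of 14551 genes (0.557%) had an r over 0.5 with Prss1 and 104 (0.715%) an r under -0.5. The lowest were Map9 (-0.78), Atrip (-0.70), Gsta1 (-0.68), Spnl1 (-0.66) and Cwf19l1 (-0.65), none of which spanned more than 3 log2 units, where Prss1 spanned nearly 10. Those most like Ins2 were Prss3bl1 (0.893), Iapp (0.872), Slc38a5 (an amino acid transporter, 0.809), Serpini2 (a serpin of the acinar list, 0.793) and Ctrl (a chymotrypsin-like protease, 0.790). Those most like Ppy were Tex28 (0.700), Zfp12 (0.672), Bcl7c (0.666), Myct1 (0.664) and Alg8 (0.656). None of these 5 had an r over 0.5 with Prss1, and none is on the lists of pancreatic genes.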

How the data were processed

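RNA of whole duodenum was amplified and biotin-labelled with Nugen kits, per the labels' protocols, and hybridised to Affymetrix arrays, 1 per rat. The deposited log2 values are RMA signals from Affymetrix Expression Console 1.3.0.187, per the submitters' processing notes. No source used here names the chip, the genome build or a filter. No total count exists for arrays: the 5 to 6 arrays per group limit the precision.

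Of 36685 rows, 14824 carry 1 gene symbol, 829 several and 21032 none. Only rows with 1 symbol were named, symbols were updated through Entrez identifiers (154 were not found), and the row of highest mean stands for a gene. The model was limma 3.58.1 (lmFit, eBayes; R 4.3.3) over 5 group means, 29 arrays and 14557 genes, two-sided, with Benjamini-Hochberg adjustment over all genes and calls at an adjusted p under 0.05. Within-group correlations used deviations from group means and 100000 permutations within groups, and exact permutations of 720 orders in groups of 6. The steps were tested on simulated data. Named genes were the members, on each list of acinar enzymes, acinar factors and beta cell genes the 4 highest and 2 lowest by r (with Prss1, or with Ins2 for beta cell genes), and those most and least like a member. Genes outside this rule were named where 5 or fewer were called or followed a member, after their values were seen. The members and lists were chosen with earlier results of these data known. Over all genes, replicate numbers showed no pairing of the rats: same-numbered arrays deviated together with r over 0.1 in at most 1 pair of any comparison. The highest such r was 0.234. Pairing in the members alone was not tested. The labels call the arrays biological replicates and give no batch. Alternatives covered genes and rows tested, the row per gene, the variance prior, centring, quantile normalization, array weights, the groups fitted, a replicate block and leaving out each array.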

Additional observations from a re-analysis of the deposited data

Results flagged for a closer look

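Of 30 combinations of a member and a group, 8 held an array whose gap to its neighbour was large for the group's range by Dixon's test at the 95% level, which chance gives in about 5% of groups. In RYGB, replicate 5 was low for Prss1 (2.87, next 7.60) and for Ctrb1 (2.83, next 8.80). In the RYGB sham, replicate 1 was high for Prss1 (7.92, next 1.96) and for Ctrb1 (7.91, next 3.88). In VSG, replicate 4 was low for Ctrb1 (6.71, next 9.37).

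In the VSG sham, replicate 1 was high for Ins1 (7.25, next 2.97) and for Ins2 (6.81, next 3.71). In RYGB, replicate 4 was high for Ppy (5.55, next 4.10). Since the acinar genes vary together, as do the insulin genes, these 8 cases come from 5 arrays and are not separate events.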

How the results depend on the processing

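In every comparison of 2 groups, and in the difference of effects, 0 members were called, also under each alternative fit that kept all arrays of the groups compared. Leaving out 1 array gave 0 to 3 called in RYGB against its sham. An exact permutation test, unadjusted, passed 5 members there and 1 member (Ins1) in the VSG sham against the RYGB sham. With its p counted on the absolute difference, 0 members passed in the VSG sham against the RYGB sham, beside 5.06% of all genes. In RYGB against its sham 5 members passed that way, beside 12.5%. With the replicate block 0 members were called and the r of Ppy was 0.23 with Prss1, 0.40 with Cela3b and 0.42 with Ins1, none of them called; the block ended no other call. The pair of Prss1 and Ppy was not called after centring (0.38) or quantile normalization (0.38), and that of Ctrb1 and Ppy was called by Spearman's rho (0.44) and without the 2 farthest arrays (0.40), where Ins1 and Ppy (0.45) was not. Without 1 array, r was 0.32 to 0.46 for Prss1 and Ppy, 0.33 to 0.48 for Ctrb1 and Ppy, and 0.41 to 0.50 for Ins1 and Ppy, with the call changing in 8, 4 and 1 cases. Members without overlap then numbered 1 to 3 for RYGB and its sham, 0 to 4 for the RYGB sham and VSG, and 0 to 1 for the RYGB sham and the pair-fed sham.

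Differences near 0 changed sign without 1 array, none of them called: in RYGB against its sham Ppy ran from -0.053 to 0.35; in VSG against its sham Ins1 from -0.41 to 0.66, Ins2 from -0.32 to 0.64 and Ppy from -0.11 to 0.089; in VSG against the pair-fed sham Ins1 from -1.20 to 0.40 and Ins2 from -1.34 to 0.033. In the pair-fed sham against the fed sham they were -0.52 to 1.25 for Prss1, -0.51 to 1.296 for Ctrb1, -0.51 to 1.35 for Ins1 and -0.091 to 1.497 for Ins2, and in the difference of effects -0.040 to 0.36 for Ppy. Ppy in VSG against its sham was 0.011 after centring and 0.014 with array weights. Over all genes, fitting only the groups compared called 192 genes in place of 385 for RYGB against its sham, 6 in place of 26 for VSG against its sham and 11 in place of 74 for VSG against the pair-fed sham. Leaving out genes of low mean called 123 in place of 74, a trended and robust prior 113, the all-row test 48 and centring 49. Without 1 array the counts were 284 to 447, 7 (without VSG replicate 3) to 24, and 17 (without VSG replicate 6) to 70 for these comparisons. The causes of these changes were not tested. Signal near the array median and a narrow range of Prss1 limit what the 9 arrays low in Prss1 can show.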
